A study of Mus musculus with 9 samples.

Results

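The subject is the family of nuclear genes for the proteins of the mitochondrial ribosome, measured in the perigonadal white fat of Lmna mutant and wild-type mice. The rule for membership uses the gene symbol and no measured change, though the family itself was picked with earlier results of these data known. A gene was a member when its probe set carried a single gene symbol made of Mrpl or Mrps and a number, and the brightest probe set stood for each gene. This gave 68 genes on 69 probe sets, 25 with a small-subunit symbol (Mrps) and 43 with a large-subunit symbol (Mrpl), of 14860 genes on the array with a probe set of a single symbol. RefSeq lists 78 protein-coding mouse genes with such a symbol. Mrps6, Mrps22 and Mrpl53 lie on probe sets that carry a second gene as well and are kept apart, and Mrpl18, Mrpl23, Mrpl27, Mrpl42, Mrpl44, Mrps21 and Mrps33 were not analysed here.

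Mitochondria keep ribosomes of their own. These translate the few messages of the mitochondrial genome, which encode core subunits of the respiratory chain and of the ATP synthase, while the ribosomal RNAs come from the same genome. Every protein of these ribosomes is encoded in the nucleus, made in the cytosol and imported. White adipocytes use mitochondrial metabolism to supply precursors for lipid synthesis, and skeletal muscle and brown fat are richer in mitochondria than white fat.

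The 9 arrays hold RNA of whole fat pads, labelled perigonadal WAT and taken at an age of 4 months, with 3 arrays from mice homozygous for the G609G allele (G609G/G609G), 3 from mice homozygous for LCS (LCS/LCS) and 3 from wild type (wt). G609G is a point mutation of Lmna, the gene of the A-type lamins, and it makes the gene yield progerin, the truncated lamin A of Hutchinson-Gilford progeria. LCS is not spelled out in the labels; it is known as an Lmna allele that yields lamin C alone. The labels name no treatment. The series' text speaks of biological replicates, but no label ties an array to an animal, so a p-value here weighs a difference against the scatter among 3 arrays a genotype, which may be partly technical.

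The G609G/G609G arrays stood apart from the others over the whole array. Their median over all 23332 probe sets was 5.94, 5.95 and 6.01 (log2 signal), against 6.31 to 6.37 on the LCS/LCS arrays and 6.36 to 6.45 on the wt arrays. The gap to wt was not even along the scale: the mean of the 25th percentiles differed by -0.06, that of the medians by -0.42, that of the 75th percentiles by -0.51 and that of the 95th percentiles by -0.38. Lmna itself had 7.08, 7.27 and 7.04 in G609G/G609G, 7.59, 7.49 and 7.64 in LCS/LCS and 7.64, 7.57 and 7.60 in wt, but its probe set does not read the alleles and so does not check the labels. The marker genes of the tissue differed too. The summed linear signal of 9 skeletal muscle markers was 34832.5 to 36550.6 in G609G/G609G, 2087.3 to 2137.6 in LCS/LCS and 863.7 to 957.5 in wt. White adipocyte markers (8 genes) summed to 30821.8 to 31650.9 in G609G/G609G, 52855.6 to 53993.5 in LCS/LCS and 47249.7 to 47573 in wt. In G609G/G609G against wt 6 of the 8 passed as lower as deposited. After quantile normalization 6 passed as lower and 2 as higher, and 4 held a fall under all 3 scalings. Epididymal markers (7 genes) summed to 5886.2 to 6350.8 in G609G/G609G, 47858.4 to 48322.9 in LCS/LCS and 47423.4 to 48252.4 in wt. The near sums of LCS/LCS and wt hide changes in both directions, as 3 of the 7 passed as higher in LCS/LCS and 2 as lower. Macrophage markers (7 genes) summed to 1699.9 to 1931.3 in G609G/G609G, 5103.9 to 5377.2 in LCS/LCS and 4039.9 to 4423.3 in wt. Brown adipocyte markers (7 genes) summed to 3332.2 to 3417.3 in G609G/G609G, 899.9 to 927.2 in LCS/LCS and 869.3 to 936.3 in wt, but they did not move together: 3 of the 7 passed as higher in G609G/G609G than in wt and 1 as lower. The lower one was Ucp1, the uncoupling protein that defines brown fat. It had 4.31, 4.21 and 4.04 in G609G/G609G and 5.68, 5.53 and 5.67 in wt (change -1.44, limma adjusted p = 2.82e-06). This fall was held under all 3 scalings. The G609G/G609G signals lay below the 25th percentiles of their arrays, 4.34, 4.33 and 4.35, and no detection calls say whether they exceeded background. Ucp1 was also lower in LCS/LCS than in wt (change -1.5967, limma adjusted p = 8.08e-06), so both mutants shared the fall. Germ cell and testis markers (11 genes) summed to 4520.5 to 4647.2 in G609G/G609G, 891.1 to 998.7 in LCS/LCS and 9801.7 to 10752.2 in wt. All 9 measured muscle markers passed the test as higher in G609G/G609G than in wt, with a lowest log2 signal of 8.52 in G609G/G609G against 3.90 in wt. In LCS/LCS against wt 3 of the 9 passed as higher as deposited. What part these differences have in the results on the ribosomal proteins was not tested. In such whole-tissue RNA, fewer cells of a type and less RNA per cell cannot be told apart.

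**Figure D1:**
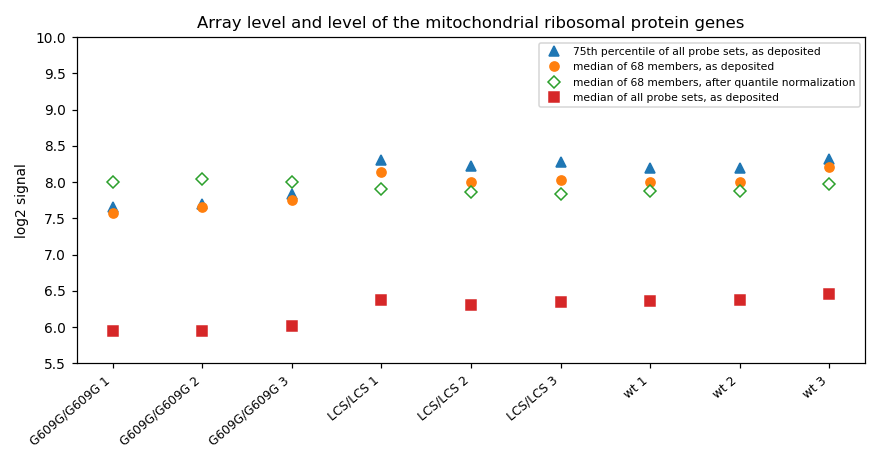
Log2 signal on each of the 9 arrays (x axis), for all probe sets (median and 75th percentile, as deposited) and for the 68 mitochondrial ribosomal protein genes (median, as deposited and after quantile normalization). As deposited the members' median is 7.58 to 7.76 on the G609G/G609G arrays and 8.0 to 8.22 on the others, and after quantile normalization it is 8.0 to 8.04 against 7.84 to 7.98.

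The median of the family moved with the median of its array. As deposited, the median of the 68 members was 7.58, 7.66 and 7.76 on the G609G/G609G arrays, 8.14, 8.01 and 8.04 on the LCS/LCS arrays and 8.01, 8.0 and 8.22 on the wt arrays. The G609G/G609G arrays lay below all others. Taken relative to the median of all probe sets of the same array, the members' median was 1.63 to 1.77 higher on every array of every genotype, and the genotypes overlapped. That overlap holds for the array median as the reference. The 75th percentile of all probe sets was nearer the members' level. It was 7.66 to 7.84 in G609G/G609G, 8.22 to 8.30 in LCS/LCS and 8.19 to 8.32 in wt. In G609G/G609G its gap to wt, -0.51, was wider than that of the array median, -0.42. After quantile normalization, which gives all arrays the same distribution, the members' median was 8.0, 8.04 and 8.0 in G609G/G609G, 7.91, 7.86 and 7.84 in LCS/LCS and 7.87, 7.88 and 7.98 in wt, and the G609G/G609G arrays lay above all others. The direction of the whole family in G609G/G609G therefore turned with the scaling. Values are given for both, and a member is said to hold a direction only where it passed the test that way as deposited, after quantile normalization and after centring each array on its median.

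Against wt, 47.1% of mitochondrial ribosomal protein genes passed as lower in G609G/G609G fat as deposited. That was about as often as all probe sets did, and less often than the 14860 genes did. After quantile normalization 48.5% passed as higher, more often than either. After centring each array on its median 42.6% passed as higher. That was about as often as all probe sets (41.4%) and the 14860 genes (43.9%) did. The threshold was an adjusted p of 0.05 or less in limma's moderated test over all probe sets. As deposited, 32 of 68 members passed as lower, where 43.3% of all probe sets did, and 5 passed as higher, where 9.41% did. Their median log2 change was -0.25, beside -0.23 over all probe sets. Of the 14860 genes, each by its brightest probe set, 53.5% passed as lower and 10.5% as higher, with a median of -0.28. After quantile normalization 33 members passed as higher, where 24.8% of all probe sets did, and 9 as lower, where 23.8% did, with a median of 0.24 beside 0.02. Of the 14860 genes 28.5% passed as higher and 29.5% as lower after it. Between these scalings the change of a member moved by 0.03 to 0.54, with a median of 0.49, so that 40 members changed sign and 5 passed the test in opposite directions. Leaving out wt replicate 2 lowered the count of higher members as deposited to 3.

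A smaller number of members kept a direction under all 3 scalings. There were 5 higher ones, Mrpl41, Mrps18b, Mrpl30, Mrps18a and Mrps2, where 9.16% of all probe sets held a rise. There were 9 lower ones, Mrps25, Mrpl49, Mrpl58, Mrpl13, Mrpl28, Mrpl36, Mrpl52, Mrpl10 and Mrps15, where 19.8% of all probe sets held a fall. Both shares of the family, 7.35% and 13.2%, were below those of the whole array. They were also below those of the 14860 genes, 10.2% and 25.5%.

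**Figure D2:**
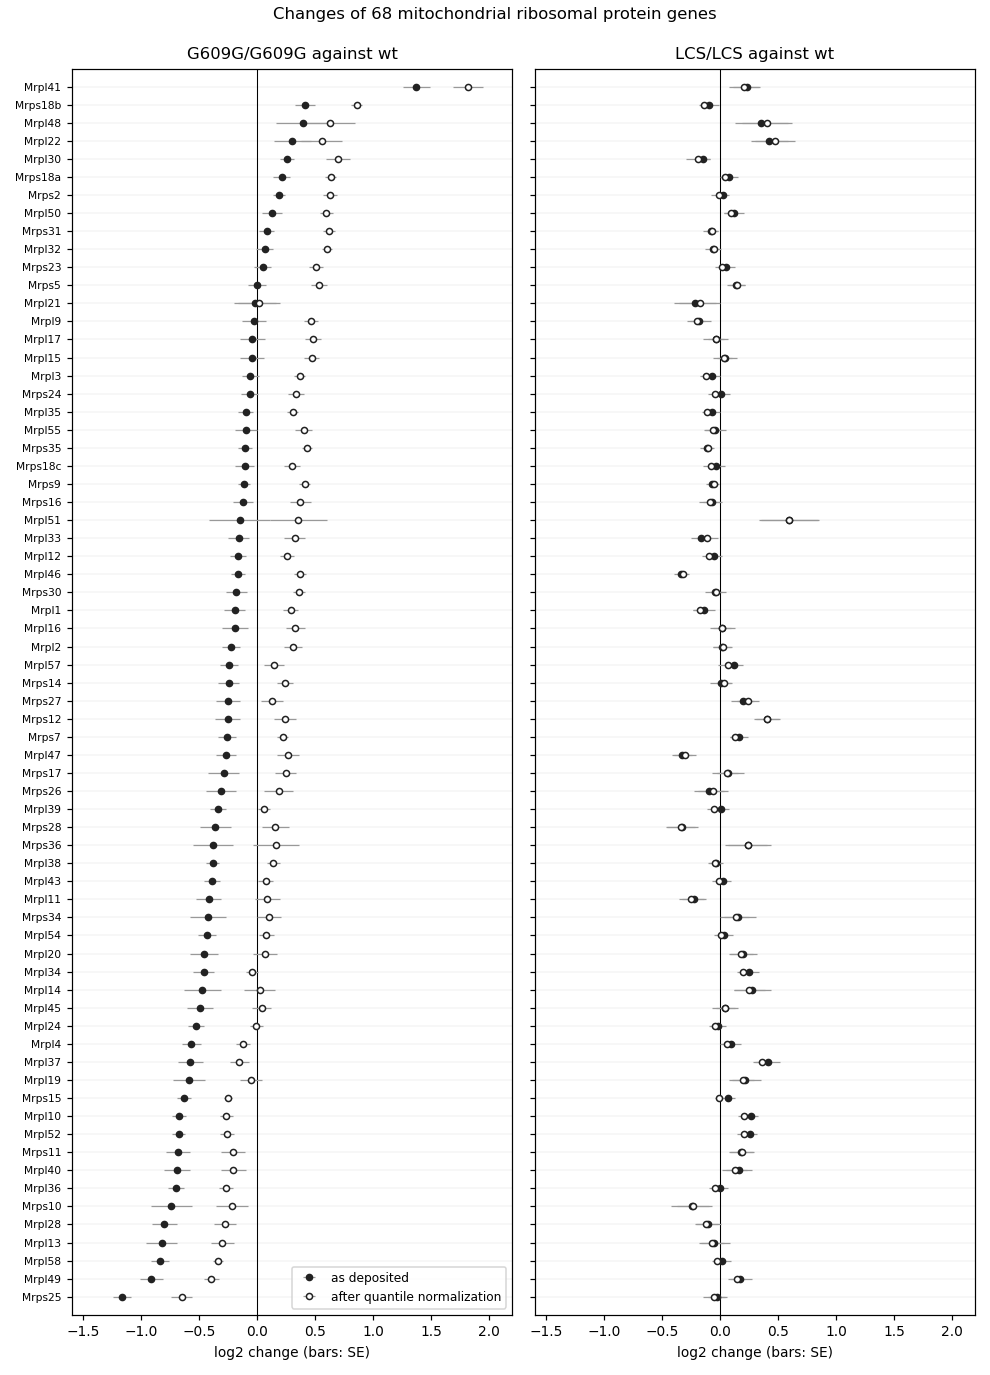
Log2 change (x axis) of each of the 68 members (rows, ordered by the change in G609G/G609G as deposited), with G609G/G609G set against wt in the left panel and LCS/LCS set against wt in the right one. Filled points are values as deposited, open points values after quantile normalization, and bars the SE from limma. On the left every open point lies right of its filled point, by a median of 0.49, while on the right the points nearly coincide, and Mrpl41 is the highest and Mrps25 the lowest member on the left.

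Promoter sequences of the members are shown because nuclear respiratory factors are known to act on many genes of mitochondrial proteins, and because members moved apart within the same arrays. RefSeq sequences upstream of the start (250 bases, build GRCm38.p6) were searched on both strands for TGCGCA, the core repeated in NRF1 sites, and for CCGGAAG, an ETS-type core such as GABP binds; by their letters a match of one cannot overlap a match of the other. Of 65 member promoters, which belong to 59 members, 16 (24.6%) held the NRF1 core, beside 6.43% of all 32851 promoters of the same length and 8.06% of those of protein-coding genes. The ETS core was in 14 (21.5%), beside 6.91% and 8.98%. A match is a description of letters and not a binding site. Members with the NRF1 core had a median change of -0.12 in G609G/G609G against wt as deposited (15 members), beside -0.24 for the 44 without it, and of 0.37 beside 0.25 after quantile normalization; this difference was not tested. Below are the windows of Mrpl41 and Mrps25, the extremes of the family in G609G/G609G, and of Mrps18b and Mrpl10, which also held a change; capitals mark TGCGCA.
Mrpl41 (chr2:24975099-24975348, minus strand, 5′ to 3′): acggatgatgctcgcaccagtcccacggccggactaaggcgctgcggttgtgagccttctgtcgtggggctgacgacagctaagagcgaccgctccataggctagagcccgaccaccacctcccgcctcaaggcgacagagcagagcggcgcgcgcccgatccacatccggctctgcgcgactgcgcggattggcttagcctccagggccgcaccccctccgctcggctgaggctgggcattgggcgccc
Mrps18b (chr17:35916441-35916690, minus strand, 5′ to 3′): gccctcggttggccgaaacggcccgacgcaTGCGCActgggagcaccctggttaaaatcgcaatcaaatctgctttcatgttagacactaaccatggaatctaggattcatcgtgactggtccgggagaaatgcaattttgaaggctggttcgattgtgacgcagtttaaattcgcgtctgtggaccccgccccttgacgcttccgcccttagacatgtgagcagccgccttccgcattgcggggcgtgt
Mrps25 (chr6:92184024-92184273, minus strand, 5′ to 3′): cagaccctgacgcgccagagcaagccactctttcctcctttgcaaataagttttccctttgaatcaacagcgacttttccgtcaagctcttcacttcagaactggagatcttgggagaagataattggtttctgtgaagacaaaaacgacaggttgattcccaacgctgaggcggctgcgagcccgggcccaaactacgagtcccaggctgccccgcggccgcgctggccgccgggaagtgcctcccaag
Mrpl10 (chr11:97041332-97041581, plus strand, 5′ to 3′): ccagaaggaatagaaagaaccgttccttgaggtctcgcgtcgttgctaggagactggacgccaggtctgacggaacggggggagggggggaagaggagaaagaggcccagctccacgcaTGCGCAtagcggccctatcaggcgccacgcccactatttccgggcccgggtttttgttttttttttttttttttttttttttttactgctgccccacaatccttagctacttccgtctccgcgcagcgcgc
The windows of Mrpl41 and Mrps25 hold neither motif, and those of Mrps18b and Mrpl10 hold the NRF1 core once each, at 220 and 131 bases before the start of the gene. Mrps18b rose and Mrpl10 fell in G609G/G609G.

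Mrpl41 (chromosome 2), a large-subunit protein also reported to bind Bcl2 in cultured cells, rose most. Its log2 signals were 9.66, 9.35 and 9.55 in G609G/G609G, 8.55, 8.44 and 8.14 in LCS/LCS and 8.10, 8.20 and 8.14 in wt. All G609G/G609G arrays were above all others, and LCS/LCS overlapped wt. The change against wt was 1.37 ± 0.12 (SE, n = 3 each; limma adjusted p = 2.32e-05), a 2.59-fold higher signal, and 1.82 after quantile normalization (adjusted p = 1.23e-05). Relative to the median change of the family it was 1.62 higher. Of the 14860 genes 215 had a larger change. In LCS/LCS the change was 0.23 (adjusted p = 0.259), which did not pass the test.

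Mrps18b (chromosome 17) rose next. It is a paralogue of Mrps18c, both being relatives of the bacterial small-subunit protein S18, and another paralogue, Mrps18a, sits in the large subunit in mammalian ribosomes despite its name. Mrps18b had signals of 8.73, 8.73 and 8.92 in G609G/G609G, 8.41, 8.17 and 8.29 in LCS/LCS and 8.32, 8.36 and 8.47 in wt, a change against wt of 0.41 ± 0.08 (SE, n = 3 each; limma adjusted p = 0.00368) and of 0.86 after quantile normalization. Mrps18a had 8.92, 8.99 and 9.12 in G609G/G609G, 8.89, 8.80 and 8.95 in LCS/LCS and 8.73, 8.78 and 8.89 in wt, a change of 0.21 ± 0.07 (adjusted p = 0.044). That call for Mrps18a was lost on leaving out wt replicate 1 or 2, G609G/G609G replicate 2 or 3, or any LCS/LCS array, with adjusted p up to 0.134. Mrps18c had 9.11, 8.95 and 9.10 in G609G/G609G, 9.04, 9.11 and 9.23 in LCS/LCS and 9.13, 9.08 and 9.28 in wt, a change of -0.11 (adjusted p = 0.287) as deposited and of 0.30 after quantile normalization (adjusted p = 0.00892). Of the 3 paralogues Mrps18b had the highest change and Mrps18c the lowest under both scalings.

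Smaller rises were held by Mrpl30 and Mrps2, relatives of the bacterial proteins L30 and S2. Mrpl30 (chromosome 1) had 8.74, 8.76 and 8.61 in G609G/G609G, 8.24, 8.35 and 8.31 in LCS/LCS and 8.49, 8.47 and 8.38 in wt. Its change against wt was 0.26 ± 0.06 (SE, n = 3 each; limma adjusted p = 0.00891), and 0.70 after quantile normalization. The genotypes did not overlap, and LCS/LCS was lowest, though its change against wt, -0.15, did not pass the test (adjusted p = 0.176). Mrps2 had 8.60, 8.70 and 8.68 in G609G/G609G, 8.48, 8.48 and 8.52 in LCS/LCS and 8.52, 8.43 and 8.46 in wt, a change of 0.19 ± 0.05 (adjusted p = 0.0147). Without wt replicate 2 the adjusted p of Mrps2 was 0.0553.

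Mrps25 (chromosome 6), a small-subunit protein without a bacterial counterpart, fell most. Its log2 signals were 7.06, 6.99 and 6.87 in G609G/G609G, 8.21, 8.09 and 8.06 in LCS/LCS and 8.21, 8.02 and 8.20 in wt. No G609G/G609G array came near those of the other genotypes. The change against wt was -1.17 ± 0.08 (SE, n = 3 each; limma adjusted p = 6.29e-06), a 2.25-fold lower signal, and -0.65 after quantile normalization (adjusted p = 0.000679). Of the 14860 genes 1316 had a lower change as deposited, so that Mrps25 was extreme within the family but not on the array. In LCS/LCS its change was -0.02 (adjusted p = 0.902).

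Most of the other held falls belonged to large-subunit symbols, as most members do. A fall was held by 7 of 43 Mrpl symbols (16.3%) and by 2 of 25 Mrps symbols (8%). Both shares were below those of all probe sets (19.8%) and of the 14860 genes (25.5%). Mrpl49, also mitochondrion-specific, had 7.0, 7.19 and 7.37 in G609G/G609G, 8.27, 8.22 and 8.33 in LCS/LCS and 8.01, 8.05 and 8.24 in wt, a change of -0.91 ± 0.10 (SE, n = 3 each; limma adjusted p = 0.000112). Mrpl58, known as Ict1, is a peptidyl-tRNA hydrolase built into the large subunit that can free stalled peptides. It had 7.43, 7.55 and 7.64 in G609G/G609G, 8.45, 8.33 and 8.41 in LCS/LCS and 8.28, 8.38 and 8.49 in wt, a change of -0.84 ± 0.08 (adjusted p = 3.65e-05). In both genes the G609G/G609G arrays lay below all others, and LCS/LCS overlapped wt or lay at its upper end. After quantile normalization the changes were -0.40 for Mrpl49 and -0.34 for Mrpl58, and both passed the test.

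The relatives of the bacterial proteins L13 and L28 followed. Mrpl13 had 7.20, 7.09 and 7.5 in G609G/G609G, 8.15, 7.96 and 8.01 in LCS/LCS and 7.98, 7.95 and 8.34 in wt, a change of -0.83 ± 0.14 (SE, n = 3 each; limma adjusted p = 0.00108). Mrpl28 had 7.03, 7.45 and 7.37 in G609G/G609G, 8.0, 7.95 and 8.0 in LCS/LCS and 7.99, 8.13 and 8.14 in wt, a change of -0.80 ± 0.11 (adjusted p = 0.000303). In both genes the G609G/G609G arrays lay below all others while LCS/LCS overlapped wt, and quantile normalization left changes of only -0.30 (adjusted p = 0.0337) and -0.28 (adjusted p = 0.0431). Among the remaining held falls were those of Mrpl36, the relative of bacterial L36 (-0.70), Mrps15, a relative of bacterial S15 (-0.63), Mrpl10, which anchors the stalk that recruits translation factors (-0.67), and Mrpl52 (-0.68), with changes of -0.25 to -0.27 after quantile normalization.

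**Figure D3:**
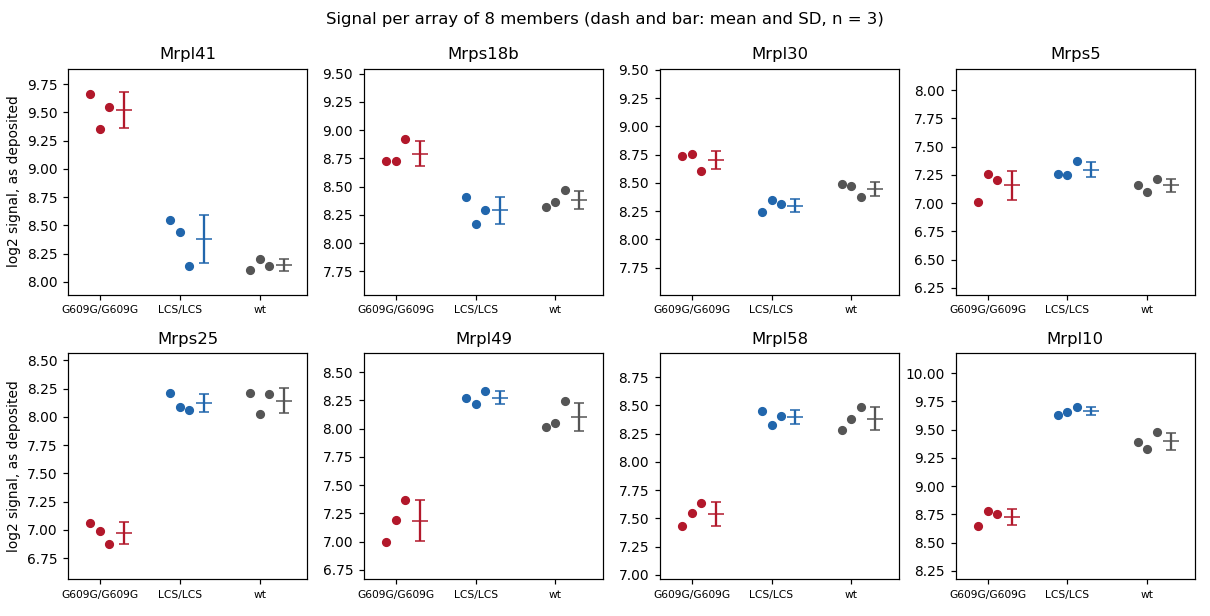
Log2 signal as deposited (y axis, 2 units in every panel) of 8 members on each array, with G609G/G609G left, LCS/LCS in the middle and wt right, and the mean and SD of 3 arrays beside the points. Mrpl41, Mrps18b and Mrpl30 are highest in G609G/G609G, Mrps25, Mrpl49, Mrpl58 and Mrpl10 are lowest there, and Mrps5 overlaps between G609G/G609G and wt.

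For other members of known function the direction depended on the scaling. Mrps5, whose lower expression is known to lengthen the life of worms, had 7.01, 7.26 and 7.20 in G609G/G609G, 7.26, 7.25 and 7.37 in LCS/LCS and 7.16, 7.10 and 7.21 in wt. Its change was 0.00 ± 0.08 (SE, n = 3 each; limma adjusted p = 1) as deposited and 0.53 (adjusted p = 0.000377) after quantile normalization. Mrpl12, the factor-binding stalk protein that also associates with the mitochondrial RNA polymerase, had 8.79, 8.69 and 8.93 in G609G/G609G, 8.94, 8.93 and 8.87 in LCS/LCS and 9.02, 8.92 and 8.97 in wt. Its change of -0.17 did not pass the test (adjusted p = 0.0771) and became 0.26 (adjusted p = 0.00686) after quantile normalization. In both genes the scaling decided between no call and a rise.

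Mrpl45, which in human mitochondria ties the ribosome to the inner membrane, had 6.86, 7.05 and 7.28 in G609G/G609G, 7.69, 7.46 and 7.64 in LCS/LCS and 7.46, 7.63 and 7.58 in wt. It was lower, with a change of -0.49 ± 0.11, as deposited (SE, n = 3 each; limma adjusted p = 0.00639) and gave 0.04 (adjusted p = 0.735) after quantile normalization. Mrps12, the relative of the decoding-site protein S12, had 6.37, 6.43 and 6.65 in G609G/G609G, 7.21, 7.11 and 7.11 in LCS/LCS and 6.92, 6.54 and 6.76 in wt. Its change against wt was -0.26 (adjusted p = 0.0824) as deposited and 0.24 (adjusted p = 0.0779) after quantile normalization. Mrps36, named for the ribosome but known as a part of the 2-oxoglutarate dehydrogenase complex, had 7.19, 7.47 and 6.78 in G609G/G609G, 7.62, 7.77 and 7.91 in LCS/LCS and 7.62, 7.35 and 7.62 in wt, and its change of -0.38 did not pass (adjusted p = 0.095). The replicate 3 array of G609G/G609G was the lowest of its 9 arrays.

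Of the 5 members that passed in opposite directions under the scalings, Mrpl46, Mrpl2 and Mrpl47 are given first. They had the largest changes in size, taking for each gene the larger of the changes as deposited and after quantile normalization. Mrpl46, a mitochondrion-specific protein of the large subunit, had 7.25, 7.30 and 7.32 in G609G/G609G, 7.18, 7.12 and 7.06 in LCS/LCS and 7.48, 7.37 and 7.52 in wt. As deposited it was lower, with a change of -0.17 (limma adjusted p = 0.0463), a call lost on leaving out any array other than wt replicate 2, with adjusted p up to 0.131, and after quantile normalization it was higher by 0.37 (adjusted p = 0.000757). Mrpl2, the relative of bacterial L2 near the peptidyl transferase centre, gave -0.23 (adjusted p = 0.0373) as deposited and 0.31 (adjusted p = 0.0121) after quantile normalization. Mrpl47 gave -0.27 (adjusted p = 0.0305) as deposited and 0.27 (adjusted p = 0.0485) after it. The calls as deposited were lost without wt replicate 2 or 3, G609G/G609G replicate 1, or replicate 1 or 3 of LCS/LCS for Mrpl2, with adjusted p up to 0.118, and without wt replicate 2 or 3 or G609G/G609G replicate 2 or 3 for Mrpl47, with adjusted p up to 0.0927. The others were Mrps14, with -0.25 as deposited and 0.24 after quantile normalization, and Mrps7, a relative of bacterial S7, with -0.26 (adjusted p = 0.0188) and 0.22 (adjusted p = 0.00757). The calls as deposited were lost for Mrps14 without any array other than replicate 3 of G609G/G609G or replicate 1 of LCS/LCS (adjusted p up to 0.138), and for Mrps7 without wt replicate 1 or 3 or G609G/G609G replicate 1 or 2 (up to 0.0626). Of these 5 genes no direction in G609G/G609G can be given apart from the scaling.

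Few members passed the test in LCS/LCS fat against wt, under either scaling. As deposited 4 of 68 members passed as higher, where 9.40% of all probe sets did, and 2 as lower, where 7.76% did, with a median change of 0.02 beside 0.02 over all probe sets. After quantile normalization 5 passed as higher, where 11.3% of all probe sets did, and 1 as lower, where 9.72% did. The median was then -0.01, beside 0.03 over all probe sets. Of the 14860 genes 12.8% passed as higher and 9.77% as lower as deposited, and 15.4% and 12.2% after quantile normalization. A direction was held under all 3 scalings by 4 higher members, where 8.83% of all probe sets held a rise, and by 1 lower member, where 6.82% held a fall. The count of higher members as deposited was 0 without wt replicate 2, LCS/LCS replicate 1 or LCS/LCS replicate 3, it was 1 without wt replicate 1, and it was 2 without wt replicate 3, G609G/G609G replicate 2 or LCS/LCS replicate 2. The count of lower members was 1 without any one wt array or without LCS/LCS replicate 1 or 2.

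The 4 higher members were Mrpl37, Mrps12, Mrpl10 and Mrpl52. Mrpl37, a mitochondrion-specific large-subunit protein, had 9.79, 9.69 and 9.79 in LCS/LCS and 9.34, 9.34 and 9.36 in wt, a change of 0.41 ± 0.11 (SE, n = 3 each; limma adjusted p = 0.0334). Mrps12, with the signals given above, changed by 0.40 ± 0.11 (adjusted p = 0.0395), with each LCS/LCS array above each wt array. Mrpl10 had 9.63, 9.66 and 9.70 in LCS/LCS and 9.39, 9.33 and 9.48 in wt, a change of 0.26 ± 0.06 (adjusted p = 0.0203). Mrpl52, a large-subunit protein, had 9.58, 9.46 and 9.47 in LCS/LCS and 9.25, 9.18 and 9.30 in wt, a change of 0.26 ± 0.06 (adjusted p = 0.0178). None of the 4 overlapped between the genotypes, yet each call was lost on leaving out an array. It was lost for Mrpl37 without any wt or LCS/LCS array or G609G/G609G replicate 2 (adjusted p up to 0.107), and for Mrps12 without wt replicate 2 or 3, G609G/G609G replicate 2 or any LCS/LCS array (up to 0.131). For Mrpl10 it was lost without wt replicate 1 or 2 or any LCS/LCS array (up to 0.0837), and for Mrpl52 without wt replicate 1 or 2 or LCS/LCS replicate 1 or 3 (up to 0.0736).

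Mrpl46 was the 1 member whose fall in LCS/LCS was held under all 3 scalings, with a change of -0.34 ± 0.06 (SE, n = 3 each; limma adjusted p = 0.00602) as deposited and -0.32 after quantile normalization. This call was kept on leaving out each array in turn, with adjusted p up to 0.0326. Mrpl47, a relative of bacterial L29, was lower as deposited only, with 7.0, 6.81 and 7.09 in LCS/LCS and 7.24, 7.30 and 7.34 in wt. Its change was -0.33 (adjusted p = 0.0371), and -0.31 (adjusted p = 0.0574) after quantile normalization, and the call was lost without any one wt array or without LCS/LCS replicate 1 or 2, with adjusted p up to 0.104. The largest change in size in LCS/LCS, 0.59 for Mrpl51, had an SE of 0.26 and did not pass the test.

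Set against LCS/LCS, most members that passed in G609G/G609G were again lower as deposited; this comparison shares its G609G/G609G arrays with the one against wt, as both comparisons against wt share the wt arrays. As deposited 33 of 68 members passed as lower, where 41.8% of all probe sets did, and 5 as higher, where 10.3% did, with a median of -0.23. Of the 14860 genes 51.1% passed as lower and 11.3% as higher. After quantile normalization 33 passed as higher, where 24.7% did, and 12 as lower, where 24.3% did, with a median of 0.20. Under all 3 scalings 5 rises were held, where 9.93% of all probe sets held one, and 12 falls, where 20.4% did. The count of higher members as deposited was 3 without replicate 2 of G609G/G609G, and likewise without replicate 2 or 3 of LCS/LCS.

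Among the falls against LCS/LCS were those of genes that had passed as higher in LCS/LCS against wt. Mrpl37 had 8.52, 8.81 and 8.98 in G609G/G609G, against the 9.69 to 9.79 given above for LCS/LCS, a change of -0.99 ± 0.11 (SE, n = 3 each; limma adjusted p = 8.37e-05) and of -0.52 (adjusted p = 0.00103) after quantile normalization. Mrpl10 had 8.65, 8.78 and 8.75 in G609G/G609G, a change of -0.94 ± 0.06 against LCS/LCS (adjusted p = 4.29e-06), and Mrpl52 had 8.61, 8.54 and 8.54, also a change of -0.94 ± 0.06 (adjusted p = 3.26e-06). Their wt arrays lay between those of the mutants. Mrps25 gave -1.15 ± 0.08 and Mrpl49 -1.09 ± 0.10 (adjusted p = 6.06e-06 and 3.68e-05). On the higher side stood Mrpl41 with 1.14 ± 0.12 (adjusted p = 6.2e-05), Mrps18b with 0.50 ± 0.08 (adjusted p = 0.00117) and Mrpl30 with 0.40 ± 0.06 (adjusted p = 0.00076).

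The other rises against LCS/LCS were small. Mrpl46 gave 0.17 (limma adjusted p = 0.0435), lost without wt replicate 1, any G609G/G609G array or LCS/LCS replicate 2 or 3 (adjusted p up to 0.146). Mrps2 gave 0.17 (adjusted p = 0.0263), lost without G609G/G609G replicate 2 or any LCS/LCS array (adjusted p up to 0.0789). Opposite calls under the scalings came from Mrpl38, which gave -0.35 (adjusted p = 0.00117) as deposited and 0.19 (adjusted p = 0.0242) after quantile normalization, from Mrpl2 with -0.24 and 0.29, and from Mrps14, a relative of bacterial S14, with -0.25 and 0.20. The calls as deposited were lost for Mrpl2 without G609G/G609G replicate 1, or replicate 2 or 3 of LCS/LCS (adjusted p up to 0.096) and for Mrps14 without any array other than wt replicate 3 or G609G/G609G replicate 3 (adjusted p up to 0.147). Mrps36 was lower, with a change of -0.62 (adjusted p = 0.0156), a call lost without LCS/LCS replicate 3 (adjusted p = 0.0555), and Mrps12 was lower, with a change of -0.66 (adjusted p = 0.00108); after quantile normalization neither passed.

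**Figure D4:**
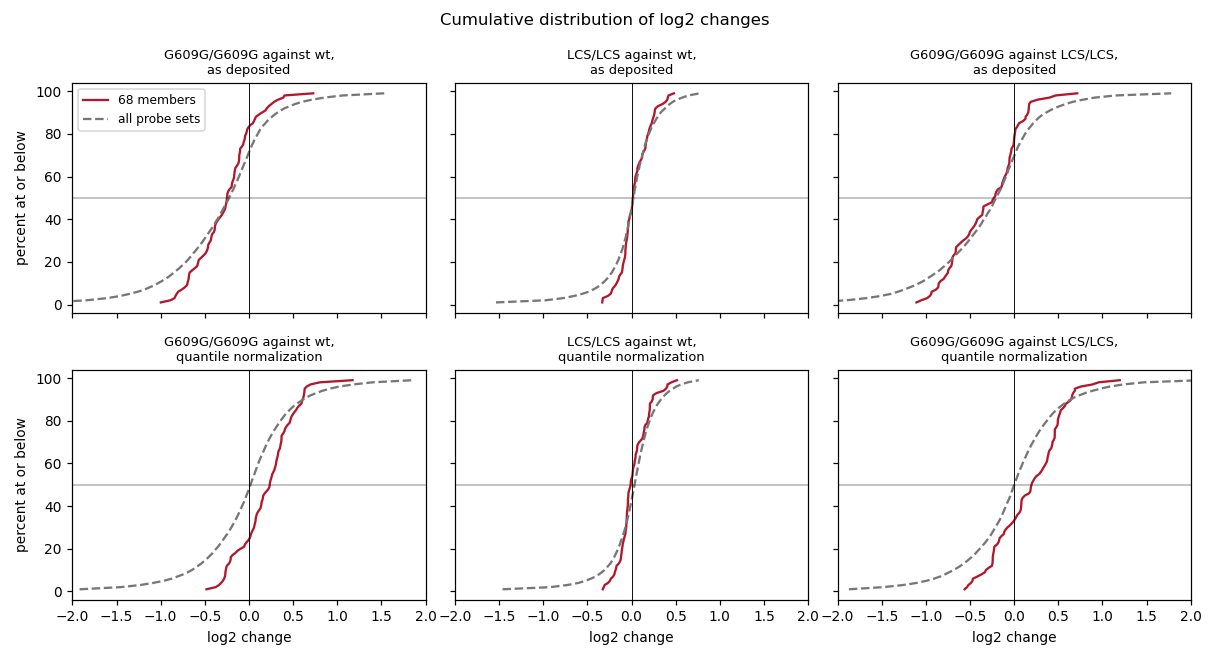
Percent of members (solid) and of all 23332 probe sets (dashed) at or below each log2 change (x axis), for the 3 comparisons, as deposited in the upper row and after quantile normalization in the lower row. In the comparisons of G609G/G609G the solid curve crosses the middle line close to the dashed one as deposited (-0.25 against -0.23 for wt) and to its right after quantile normalization (0.24 against 0.02); for LCS/LCS against wt both cross near 0.

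A moderated F test over the 3 genotypes, which asks for any difference among them, passed for 38 of 68 members as deposited, where 55.3% of all probe sets passed, and for 44 after quantile normalization, where 54.2% did. The spread of the changes among members, as an SD over genes, was 0.38 when G609G/G609G was set against wt and 0.18 when LCS/LCS was, beside 0.71 and 0.41 over all probe sets.

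By subunit symbol, shares stand beside those of all probe sets given above, 9.41% higher and 43.3% lower as deposited and 24.8% and 23.8% after quantile normalization. Of the 14860 genes 10.5% passed as higher and 53.5% as lower as deposited. The split follows the symbol alone, so Mrps18a and Mrps36 count as small-subunit symbols despite their places described above. The small-subunit symbols had a median change of -0.25 in G609G/G609G against wt as deposited, with 3 of 25 (12%) passing as higher and 7 (28%) as lower. The large-subunit symbols had a median of -0.27, with 2 of 43 (4.65%) passing as higher and 25 (58.1%) as lower. After quantile normalization the medians were 0.25 and 0.14, with 14 of 25 (56%) and 19 of 43 (44.2%) passing as higher and 2 (8%) and 7 (16.3%) as lower. The difference between Mrps and Mrpl symbols was not tested, and members with the same kind of symbol passed in opposite directions: Mrps25 and Mrps18b, with -1.17 and 0.41 as deposited, both carry small-subunit symbols.

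**Figure D5:**
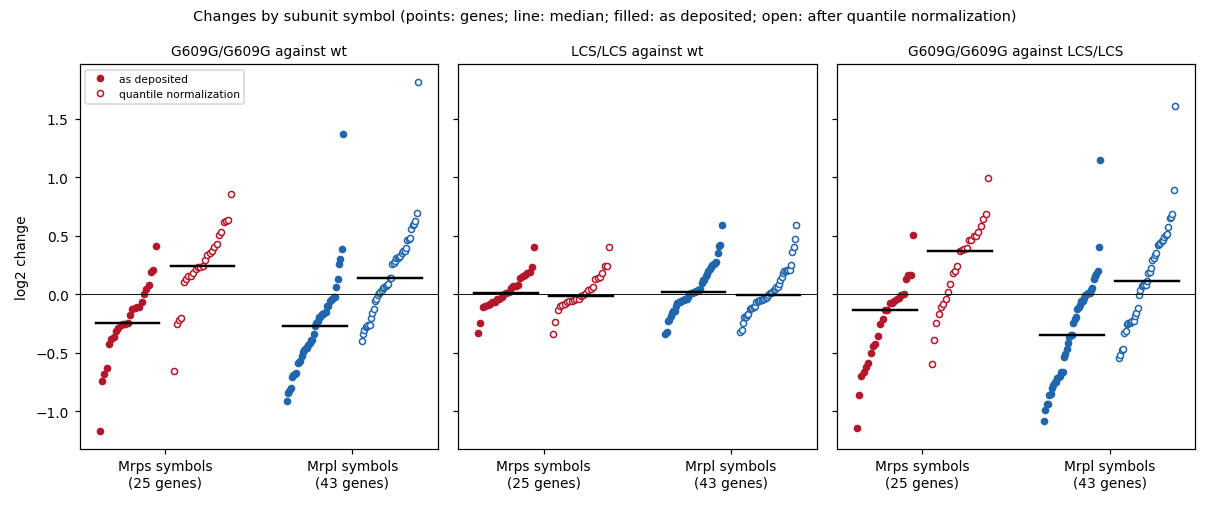
Log2 change (y axis) of the 25 Mrps genes (red) and the 43 Mrpl genes (blue) in the 3 comparisons, as deposited (filled) and after quantile normalization (open), with the median as a line. In G609G/G609G against wt the medians are -0.25 and -0.27 as deposited and 0.25 and 0.14 after quantile normalization, and the changes of Mrps and Mrpl genes overlap.

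Some members say little. Mrpl21, Mrpl48 and Mrpl22 were the dimmest members, and no detection calls say whether their signals exceeded background. Mrpl48 was the only member with more than 1 probe set. The brighter gave 0.39 (limma adjusted p = 0.188) and the dimmer -0.10 (adjusted p = 0.643) in G609G/G609G against wt. The probe set shared by Mrps6 and the transporter gene Slc5a3 had 8.87, 8.65 and 8.83 in G609G/G609G, 11.01, 10.74 and 10.89 in LCS/LCS and 10.18, 10.17 and 10.18 in wt. Its change against wt was -1.39 in G609G/G609G and 0.70 in LCS/LCS (adjusted p = 3.37e-06 and 0.000828), but these probes do not say which of the genes moved.

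Counts for the machinery around the mitochondrial ribosome are to be read against all probe sets in the same comparison, of which 43.3% passed as lower and 9.41% as higher as deposited, and 23.8% as lower and 24.8% as higher after quantile normalization. Of the 14860 genes 53.5% passed as lower and 10.5% as higher as deposited, and 29.5% and 28.5% after it. Of 12 measured mitochondrial translation factors, 11 passed as lower and 0 as higher in G609G/G609G against wt as deposited, and 1 as lower and 3 as higher after quantile normalization, with medians of -0.30 and -0.02; without wt replicate 3 the lower count as deposited was 6. Of the 12, 1 held a fall under all 3 scalings, where 19.8% of all probe sets did, and 0 held a rise, where 9.16% did. Mtif2, the initiation factor that brings the first tRNA, changed by -0.97 (limma adjusted p = 6.41e-05) and by -0.60 after quantile normalization. Tsfm of the same list changed by -0.59 (adjusted p = 2.77e-05), but by only -0.08 (adjusted p = 0.188) after quantile normalization. Among 19 assembly and rRNA-modifying factors 10 passed as lower and 1 as higher as deposited, and 4 as lower and 9 as higher after quantile normalization. Under all 3 scalings 4 of the 19 held a fall and 1 a rise. Tfb1m, the methyltransferase of the small ribosomal RNA, had 6.33, 6.32 and 6.65 in G609G/G609G, 7.47, 7.43 and 7.52 in LCS/LCS and 7.77, 7.75 and 7.86 in wt. It fell by 1.36 on the log2 scale (adjusted p = 6.45e-06), and after quantile normalization the change was -0.87. Mettl15, which methylates the same RNA, changed by -0.98, and by -0.61 after quantile normalization. The higher call was that of the helicase Ddx28, 0.45 (adjusted p = 0.0248), lost without wt replicate 1 or 2 or G609G/G609G replicate 2 or 3 (adjusted p up to 0.0832).

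In the other lists, too, fewer genes passed as lower and more as higher after quantile normalization. Of 15 mitochondrial aminoacyl-tRNA synthetases 11 passed as lower as deposited in G609G/G609G and 6 as higher after quantile normalization, while none passed as higher as deposited (1 without G609G/G609G replicate 2) and 1 passed as lower after it. Of 9 genes for upkeep of mitochondrial DNA and RNA 3 passed as lower as deposited (6 without G609G/G609G replicate 3) and 3 as higher after quantile normalization. The 3 measured ribosomal proteins with other names, Ptcd3, Gadd45gip1 and Chchd1, gave 1 lower call as deposited, that of Ptcd3, with a limma adjusted p of 0.00513 and a change of -0.43. After quantile normalization Ptcd3 gave 0.10 (adjusted p = 0.183), while Gadd45gip1 (0.49) and Chchd1 (0.75) passed as higher, and none of the 3 held a direction under all 3 scalings. The 49 listed subunits of the respiratory chain and ATP synthase are encoded in the nucleus, so they are not made by the mitochondrial ribosome. Of these, 14 passed as lower and 3 as higher as deposited (5 higher without wt replicate 3). After quantile normalization 3 passed as lower and 32 as higher. Of 16 cytosolic ribosomal proteins 4 passed as lower and 2 as higher as deposited (1 higher on leaving out any one wt array, either replicate 2 or 3 of G609G/G609G, or replicate 2 of LCS/LCS), and 0 as lower and 4 as higher after it.

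Regulators of mitochondrial genes gave calls in both directions. Ppargc1a, the coactivator of mitochondrial biogenesis, had 8.99, 8.93 and 9.12 in G609G/G609G, 7.26, 7.06 and 7.07 in LCS/LCS and 7.92, 7.86 and 7.93 in wt. It was higher by 1.11 ± 0.08 in G609G/G609G against wt (SE, n = 3 each; limma adjusted p = 6.47e-06) and lower, with a change of -0.77 ± 0.08, in LCS/LCS against wt (adjusted p = 0.000277), and the 3 genotypes did not overlap. Gabpb1, a subunit of the ETS-type factor GABP, was higher by 0.99 (adjusted p = 0.000402) and Myc by 0.63 (adjusted p = 0.00269) in G609G/G609G, and both also passed as higher after the other scalings. Yy1 was lower, with a change of -0.55 (adjusted p = 0.00019) and of -0.13 (adjusted p = 0.0488) after quantile normalization, and after centring its -0.12 did not pass. Of the 9 measured regulators 3 passed as higher and 3 as lower as deposited, and 7 as higher and 1 as lower after quantile normalization. The other lower calls as deposited, neither of them held, were those of Esrra, -0.35 (adjusted p = 0.0151), lost without replicate 2 of wt or of G609G/G609G (up to 0.0518), and Ppargc1b, -0.19 (adjusted p = 0.0166), lost without wt replicate 3 or G609G/G609G replicate 1 (up to 0.0521). After quantile normalization Esrra gave 0.14 (adjusted p = 0.345), and Ppargc1b passed in the opposite direction with 0.27 (adjusted p = 0.000791). Nrf1 itself changed by 0.07 (adjusted p = 0.198) as deposited and by 0.61 (adjusted p = 0.000108) after quantile normalization. The muscle marker sums were also highest in G609G/G609G, and their part in the rise of Ppargc1a was not tested.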

How the data were processed

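Total RNA of perigonadal white adipose tissue was labelled with biotin and hybridised to arrays, per the labels' protocols. The deposited values are on a log2 scale per probe set, as judged from their range. How the authors corrected background, summarised probes and scaled arrays is unknown, since no label or file header records it. The submitters' processing notes list build mm9. Gene symbols came from the platform annotation (14996 probe sets with 1 symbol, 1019 with several, 7317 with none listed).

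Genotype means were fitted over all 9 arrays and 23332 probe sets with limma 3.58.1 in R 4.3.3 (lmFit, eBayes, 6 residual degrees of freedom). All p-values are two-sided limma p-values with Benjamini-Hochberg adjustment over all probe sets, and an adjusted p of 0.05 or less passed. Values as deposited were the main setting; quantile normalization and median centring were set beside them. The other alternatives were quantile normalization over named probe sets, leaving out the dimmest 25% of probe sets, a fold of 1.5, the methods' t-test, a replicate block, a trended robust fit, the mean of a gene's probe sets and leaving out each array. Signals per array were given for the 5 largest held rises and falls per comparison without overlap and for 8 members singled out by function. For the 3 largest opposite calls the changes were given. A few further members with held calls were added. From other lists, the 2 genes of smallest adjusted p in each direction and all regulators could be named. Members and lists were chosen with earlier results of these data known. The series' text names 10 samples; 9 were analysed here. Tables and figures used Python 3.11.15, pandas 2.3.3 and matplotlib 3.10.9. The fit was tested on simulated data without a shift of whole arrays, so that test does not bear on the choice of scaling.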

Additional observations from a re-analysis of the deposited data

How the results depend on the processing

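Scaling decided the direction of the family in G609G/G609G. Against wt, higher and lower members numbered 33 and 9 after quantile normalization, 29 and 10 after median centring, and 36 and 8 after quantile normalization over named probe sets, with medians of 0.24, 0.18 and 0.29. After centring 41.4% of all probe sets passed as higher and 21.5% as lower, with a median of 0.20, beside 42.6% and 14.7% of members. Of the 14860 genes 43.9% passed as higher and 27.6% as lower after it, with a median of 0.14. Against LCS/LCS they numbered 33 and 12, 29 and 18, and 37 and 10, with medians of 0.20, 0.15 and 0.25; after centring 38.5% and 23.9% of all probe sets passed. For LCS/LCS against wt the lower count was 1, 1 and 8. Of all probe sets 9.72% passed as lower there after quantile normalization and 7.28% after centring. Shares of all probe sets are not given for quantile normalization over named probe sets, the methods' t-test or the replicate block. Those member counts therefore cannot be told apart from a shift of the whole array. The scaling between arrays is unknown, and the cause of the difference between scalings was not tested. A fold of 1.5 as well, and the methods' t-test at its own threshold, each left 1 higher and 13 lower members in G609G/G609G against wt, 0 and 0 in LCS/LCS against wt, and 1 and 20 in G609G/G609G against LCS/LCS; the fold minimum removes smaller changes by construction. With that fold, limma passed 1074 and 5860 of all 23332 probe sets, 507 and 878, and 1253 and 5931 in these comparisons. The lower count in LCS/LCS was 1 with the methods' t-test after Benjamini-Hochberg adjustment.

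For named members, changes in G609G/G609G that turned sign are given as quantile normalization, centring and quantile normalization over named probe sets. Against wt they were 0.37, 0.26 and 0.43 for Mrpl46, 0.31, 0.20 and 0.36 for Mrpl2, 0.27, 0.16 and 0.34 for Mrpl47, 0.26, 0.26 and 0.28 for Mrpl12, 0.30, 0.32 and 0.32 for Mrps18c, 0.24, 0.17 and 0.32 for Mrps12, and 0.16, 0.04 and 0.23 for Mrps36. Against LCS/LCS they were 0.19, 0.023 and 0.25 for Mrpl38, 0.29, 0.13 and 0.36 for Mrpl2, 0.20, 0.12 and 0.29 for Mrps14, 0.39, 0.24 and 0.47 for Mrps5, 0.36, 0.26 and 0.40 for Mrpl12, and 0.38, 0.30 and 0.42 for Mrps18c. Without centring, Mrpl45 gave 0.038 and 0.10 against wt. Against LCS/LCS, quantile normalization over named probe sets gave 0.079 for Mrpl45 and 0.0067 for Mrps36.

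Leaving out each array gave 3 to 6 higher members in G609G/G609G against wt, 0 to 5 higher and 1 to 2 lower in LCS/LCS against wt, and 3 to 5 higher in G609G/G609G against LCS/LCS. Same-numbered arrays deviated together in 2 of 9 pairs (correlation over 0.1), and 2 of 9 arrays correlated best with their own number. The numbers were not used as pairs in the main fit, but so weak a check cannot exclude a pairing. With a replicate block the counts were 5 higher and 32 lower in G609G/G609G against wt, 3 and 1 in LCS/LCS against wt, and 4 and 32 in G609G/G609G against LCS/LCS. With 3 arrays a genotype and no detection calls, small changes of dim members cannot be resolved.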
